A study of Mus musculus with 8 samples.

Results

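The maternally expressed imprinted genes described here are H19, Cdkn1c, Phlda2, Meg3, Rian, Mirg, Grb10, Igf2r, Slc22a18 and Zim1. They were taken by symbol from a table of RPKM values (reads per kilobase of gene model, scaled to the mapped reads of a library), and all 10 were found among its 21182 genes. The values come from 8 single whole C57BL/6 mouse embryos at embryonic day E6.75, the onset of gastrulation, as 4 Control embryos and 4 embryos labelled Tet1/2/3 TKO. The TKO label stands for a triple knockout of the TET enzymes, which oxidise methylated cytosine and so start its removal. The Control embryos are described as 123WT in the sample descriptions, with no further account of their genotype. How the TKO alleles were made, breeding, litter, sex and collection date were not given in the sources used here. A whole embryo at this age holds epiblast, visceral and parietal endoderm, extraembryonic ectoderm and ectoplacental cone, and fewer cells of a type cannot be told apart from less RNA per cell.

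An imprinted gene is transcribed mainly from 1 parental allele, and the choice is set by a control region that carries DNA methylation on only 1 of the parental chromosomes. These marks are laid down in the germ line and are kept through the wave of demethylation after fertilisation, when most other methylation is lost. Maternally expressed imprinted genes tend to restrain growth of the fetus and placenta, and several are strongly expressed in trophoblast. An RPKM value adds the reads of both alleles, so it gives the level of a gene and not the allele that was used.

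Tet1 RNA was not lower in the embryos labelled TKO: it stood at 5.04, 5.25, 4.93 and 5.76 RPKM in Control replicates 1 to 4 and at 15.3, 9.504, 9.21 and 11.7 RPKM in TKO replicates 1 to 4 (0.97 on the log2 scale, adjusted p = 0.103 by limma), with no overlap of the groups. Over 15 alternative fits its adjusted limma p ran from 0.0315 (without TKO replicate 1) to 0.320 (without TKO replicate 4), and 14 left it above 0.05. Tet3 RNA was lower in the embryos labelled TKO, also with no overlap (-0.26 on the log2 scale, adjusted p = 0.297 by limma). Its values were 1.73 to 2.08 RPKM in Control embryos and 1.14 to 1.68 RPKM in those labelled TKO. Over all genes tested, the groups did not overlap for 9.41%. Tet2 was below 1 RPKM in each embryo, and its groups overlapped. A gene-level value also counts reads outside a deleted part, so it does not check a deletion. The embryos are therefore called TKO-labelled, and every direction given here rests on that label. Read totals, estimated from the steps between low values, were 0.755 to 1.00 times that of Control replicate 1 in the Control embryos and 0.600 to 1.16 times in the TKO-labelled ones, lowest in TKO replicate 1. Summed levels of marker genes varied between embryos, for the 12 epiblast markers from 499 to 1053 RPKM and for the 10 extraembryonic ectoderm markers in the table from 117 to 185 RPKM. The summed level of 12 decidual genes, a maternal tissue, was 3.58 RPKM in Control replicate 2 and 259 to 571 RPKM in the other Control embryos, and 20.5 to 459 RPKM in TKO-labelled embryos. The 12 parietal endoderm markers summed to 173 to 346 RPKM in Control embryos, to 284 RPKM in TKO replicate 1 and to 639.9 to 992 RPKM in the other TKO-labelled embryos.

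Because TET enzymes act on methylated CpG dinucleotides, the 250 bases before the annotated starts of the members were read from RefSeq promoter windows (build GRCm38.p6). A window was found for 8 members, with 2 starts each for Meg3 and Grb10, and the other members are H19 and Cdkn1c. The windows of 5 members are shown to let their CpG content be compared, each 5′ to 3′ along the gene with every CpG in capitals. Phlda2 lies at chr7:143502525-143502774 on the minus strand, Slc22a18, its neighbour in the Kcnq1 domain, at chr7:143473539-143473788 on the plus strand, and Igf2r at chr17:12769707-12769956 on the minus strand. The upstream Meg3 start lies at chr12:109540746-109540995 on the plus strand and the upstream Grb10 start at chr11:12037421-12037670 on the minus strand.
Phlda2: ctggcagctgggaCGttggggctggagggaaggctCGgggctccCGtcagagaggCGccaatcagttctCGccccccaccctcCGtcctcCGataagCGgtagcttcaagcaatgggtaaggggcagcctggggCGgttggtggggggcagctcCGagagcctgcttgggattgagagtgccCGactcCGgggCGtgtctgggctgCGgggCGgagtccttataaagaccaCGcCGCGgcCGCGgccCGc
Slc22a18: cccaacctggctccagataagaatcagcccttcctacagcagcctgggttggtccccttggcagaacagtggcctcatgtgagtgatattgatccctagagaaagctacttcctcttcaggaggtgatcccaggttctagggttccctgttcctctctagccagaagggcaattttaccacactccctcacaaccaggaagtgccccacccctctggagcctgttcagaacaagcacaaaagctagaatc
Igf2r: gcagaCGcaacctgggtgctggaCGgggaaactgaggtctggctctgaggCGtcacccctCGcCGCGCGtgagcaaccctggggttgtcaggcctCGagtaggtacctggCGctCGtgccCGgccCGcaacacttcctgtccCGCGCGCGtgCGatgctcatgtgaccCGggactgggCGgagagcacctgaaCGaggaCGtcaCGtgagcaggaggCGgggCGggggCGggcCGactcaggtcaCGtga
Meg3: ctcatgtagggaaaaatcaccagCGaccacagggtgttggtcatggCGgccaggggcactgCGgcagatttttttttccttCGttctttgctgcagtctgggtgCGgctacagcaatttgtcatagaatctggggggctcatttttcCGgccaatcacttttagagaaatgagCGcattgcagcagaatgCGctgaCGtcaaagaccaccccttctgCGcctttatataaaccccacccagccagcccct
Grb10: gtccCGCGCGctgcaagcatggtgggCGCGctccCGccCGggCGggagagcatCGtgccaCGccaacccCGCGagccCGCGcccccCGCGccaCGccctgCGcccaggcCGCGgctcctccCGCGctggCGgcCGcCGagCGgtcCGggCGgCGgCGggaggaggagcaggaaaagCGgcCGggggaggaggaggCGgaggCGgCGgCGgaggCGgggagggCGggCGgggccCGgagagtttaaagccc

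The upstream Grb10 window held 40 CpGs, more than 98.7% of the 32851 windows of that length, and its GC content was 81.2%. Igf2r held 27 CpGs and Phlda2 21, above 91.4% and 83.7% of the windows. Zim1 held 14 CpGs, Mirg and the upstream Meg3 start 10 each and the downstream Grb10 start 8, against a median of 6 over all windows. Slc22a18, Rian and the downstream Meg3 start held 0. The letters TGCCGC, which the imprint-guarding zinc finger protein ZFP57 reads in methylated form, were searched on both strands and stood in 2 of the 10 member windows, those of Zim1 and of the upstream Meg3 start, and in 8.68% of all windows. The methylation of these bases was not measured here, and the control regions of the domains mostly lie elsewhere.

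**Figure D1:**
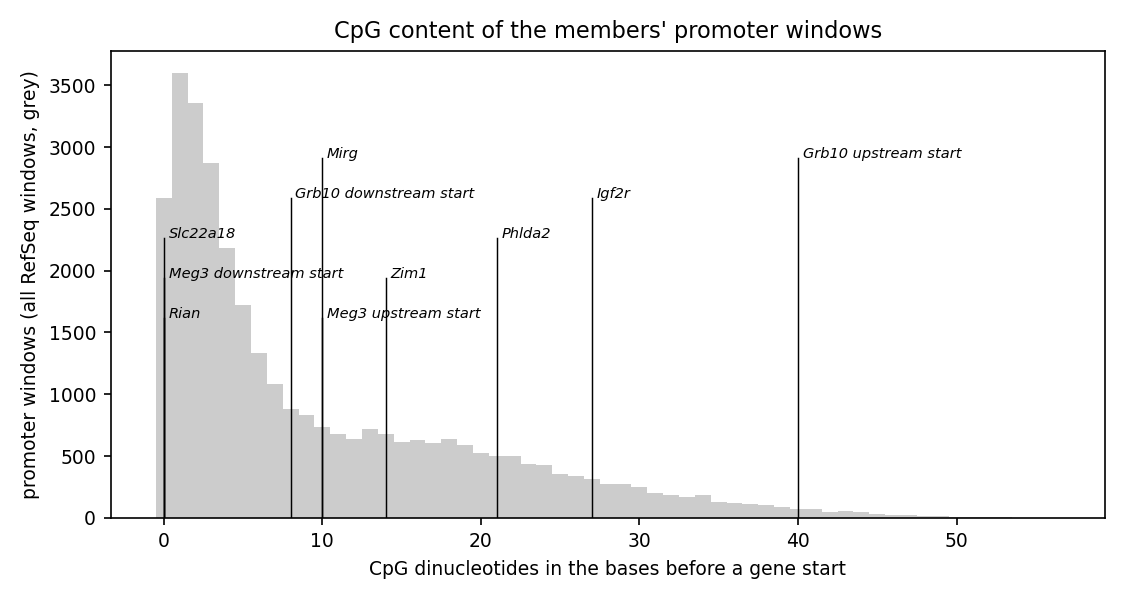
CpG dinucleotides (x axis) in the 250 bases before the gene start, as the number of RefSeq windows with each count (grey bars, y axis) and as lines of freely chosen height for the 10 windows of 8 members. The members span the range from 0 CpGs (Slc22a18, Rian, downstream Meg3 start) to 40 (upstream Grb10 start).

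The members covered a wide range of levels. H19 and Phlda2 were the highest, with means over all 8 embryos of 317 and 291 RPKM, followed by Grb10 (41.6 RPKM), Cdkn1c (27.7), Meg3 (22.6), Rian (16.5), Mirg (7.82), Igf2r (6.92), Slc22a18 (1.76) and Zim1 (0.128). Of neighbours in this order, the embryo values overlapped between H19 and Phlda2, Grb10 and Cdkn1c, Cdkn1c and Meg3, Meg3 and Rian, and Mirg and Igf2r, and did not overlap between the others. Of the 10 members 9 passed the filter of at least 1 RPKM in at least 4 embryos and were tested, and Zim1 did not. In the comparison of TKO-labelled with Control embryos 0 of the 9 passed the limma threshold of an adjusted p of 0.05, where 1 of 10451 genes tested did (0.00957%). Their adjusted p-values ran from 0.248 to 0.886. At an unadjusted limma p below 0.05 stood 1 of the 9, H19, against 17.5% of all genes. The values of the groups overlapped for all 9. They did not overlap for 9.41% of all genes, a share too small to set 9 genes apart. The 9 log2 differences had a median of -0.14, 4 above and 5 below 0. Over all genes tested the median was 0.09 and 66.5% were above 0. Of the genes at an unadjusted limma p below 0.05, 1448 were higher and 376 lower in TKO-labelled embryos. The median of the 9 was above 0 with embryo weights (0.03), without Control replicate 1 (0.03) and without TKO replicate 2 (0.04). It was lowest, at -0.23, with median-ratio scaling of the embryos. The scale factors were 0.948 to 1.003 in Control and 1.004 to 1.073 in TKO-labelled embryos, so that scaling lowers the TKO-labelled values relative to Control. The share of all genes above 0 was not counted after it.

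**Figure D2:**
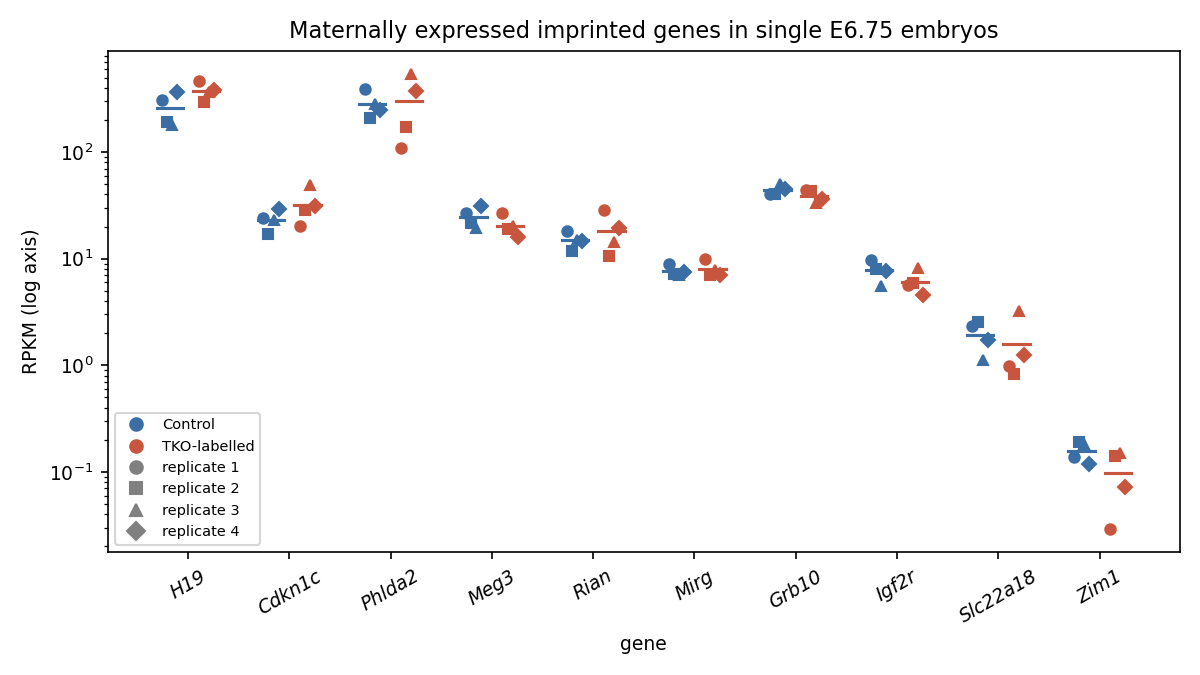
RPKM (log axis) of the 10 members, 1 point per embryo with a shape for each replicate number, Control in blue and TKO-labelled in red, with a bar at the group mean. The groups overlap for each gene. The coefficient of variation is higher in the TKO-labelled embryos for each member but H19, where it is 34.3% in Control and 18.3% in TKO-labelled embryos. For some members the step is small, as for Meg3 (21.2% and 22.7%). The median over all genes tested is also higher in TKO-labelled embryos (14.8% and 16.5%). The share of all genes with a higher value there was not counted, so this is not a trait of the members.

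**Figure D3:**
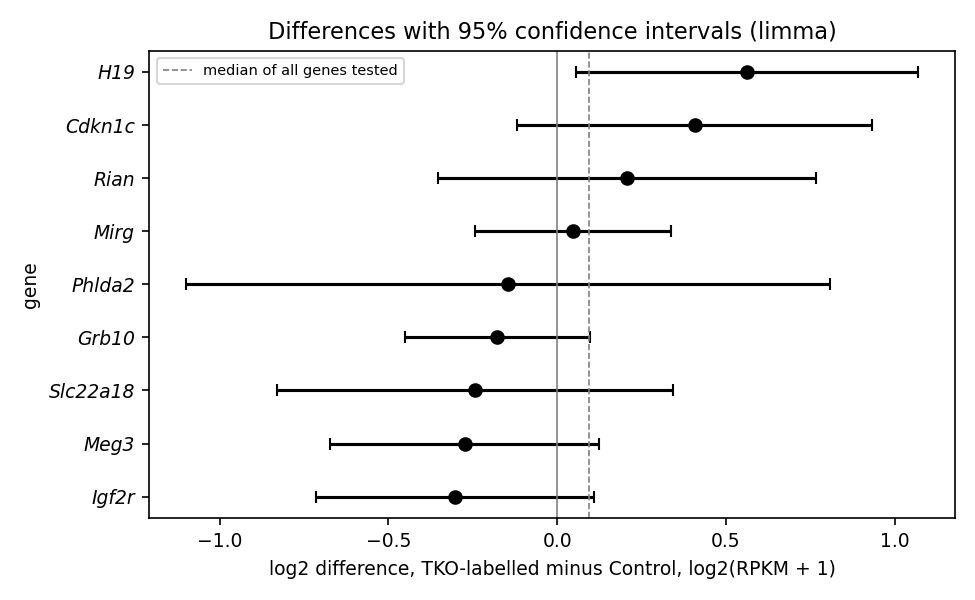
Difference of the TKO-labelled from the Control mean (points) on the log2(RPKM + 1) scale with 95% confidence intervals from limma (bars) for the 9 members tested, with a dashed line at the median of all genes. The interval of H19, from 0.05 to 1.07, is the only one of the 9 that does not hold 0.

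H19, a long non-coding RNA that shares its enhancers with the growth factor gene Igf2, had the largest difference on the log2(RPKM + 1) scale among the members, and it did not pass the adjusted threshold. It stood at 309, 191, 180.2 and 363 RPKM in Control replicates 1 to 4 and at 460.2, 293, 362 and 378 RPKM in TKO replicates 1 to 4. Control replicates 2 and 3 lay below each TKO-labelled embryo, while Control replicates 1 and 4 lay within the TKO-labelled range. The means were 261 ± 89.5 and 374 ± 68.5 RPKM (SD, n = 4 each), 1.43 times as high in TKO-labelled embryos. By the same ratio of means Zim1, at few reads, was at 0.623 times. The log2 difference of H19 was 0.56 (SE 0.23, 95% confidence interval 0.05 to 1.07), with a limma p of 0.0331 before and 0.248 after Benjamini-Hochberg adjustment over all genes. The exact permutation p over the 70 assignments of the embryos was 0.171, where 0.0286 is the smallest possible.

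Igf2, the paternally expressed neighbour of H19, had nearly equal means in the groups, 51.9 ± 11.2 and 52.4 ± 12.9 RPKM (SD, n = 4 each). Igf2 stood at 64.4, 43.8, 41.2 and 58.2 RPKM in the Control embryos and at 58.2, 37.4, 67.0 and 47.1 RPKM in those labelled TKO, which differ by 0.01 on the log2 scale (95% interval from -0.43 to 0.44, adjusted p = 0.993 by limma). Dividing H19 by Igf2 within an embryo gave ratios of 4.81, 4.37, 4.37 and 6.23 in Control and of 7.91, 7.84, 5.40 and 8.03 in TKO-labelled embryos. TKO replicates 1, 2 and 4 lay above all Control embryos, and TKO replicate 3 lay below Control replicate 4. On the scale of log2((H19 + 1)/(Igf2 + 1)) the means were 2.27 ± 0.24 and 2.82 ± 0.27 (SD, n = 4 each). The difference of 0.56 had an exact permutation p of 0.0571, or 0.214 after Benjamini-Hochberg adjustment over the 5 pairs compared.

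Phlda2, Cdkn1c and Slc22a18 belong to the Kcnq1 domain, whose paternal copies are silenced by the non-coding RNA Kcnq1ot1. Phlda2 encodes a small pleckstrin-homology protein that restrains growth of the placenta. It stood at 392, 208, 282 and 245 RPKM in Control replicates 1 to 4 and at 108, 169.9, 545 and 375 RPKM in TKO replicates 1 to 4. TKO replicates 1 and 2 lay below all Control embryos and TKO replicate 3 above them all. The means were 282 ± 79.6 and 299 ± 199 RPKM (SD, n = 4 each), higher in TKO-labelled embryos. On the log2 scale the difference had the other sign, -0.14 (95% interval from -1.10 to 0.81, adjusted p = 0.886 by limma), and it was 0.25 without TKO replicate 1. The coefficient of variation of Phlda2 reached 28.2% among Control and 66.5% among TKO-labelled embryos, where the medians over all genes tested were 14.8% and 16.5%.

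Trophoblast markers did not share 1 order over the embryos. Plac1, a trophoblast gene, stood at 23.3, 7.06, 16.8 and 11.2 RPKM in Control and at 5.93, 8.82, 87.5 and 28.6 RPKM in TKO-labelled embryos, highest in TKO replicate 3 and lowest in TKO replicate 1. Of the 12 markers of ectoplacental cone and giant cells 4 passed the filter, 1 (Tpbpb) was at 0 in all embryos, and their sum was 35.2 to 161 RPKM in Control and 28.3 to 276 RPKM in TKO-labelled embryos. That sum was lowest in TKO replicate 2, at 28.3 RPKM, and highest in TKO replicate 3. Prl3d1, a giant cell hormone gene, was also highest in TKO replicate 3, at 108 RPKM, and was lowest in Control replicate 2, at 0.384 RPKM. The markers of extraembryonic ectoderm, also trophoblast, summed to 117 RPKM in TKO replicate 3, the lowest of the 8 embryos, and to 158 RPKM in TKO replicate 1. The part of these cells in the Phlda2 values was not tested.

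Cdkn1c, which encodes the cyclin-dependent kinase inhibitor p57, stood at 23.9, 17.1, 23.0 and 29.1 RPKM in the Control embryos. In TKO replicates 1 to 4 it stood at 20.2, 28.4, 48.6 and 31.5 RPKM. TKO replicates 3 and 4 exceeded all Control embryos, and TKO replicate 1 lay below 3 of the 4. The log2 difference was 0.41 (95% interval from -0.12 to 0.93, adjusted p = 0.398 by limma, exact permutation p = 0.257). Leaving out TKO replicate 1 gave 0.60 and leaving out TKO replicate 3 gave 0.19, with adjusted limma p-values of 0.207 and 0.648. Kcnq1ot1, at 2.33 to 3.70 RPKM in Control and 2.16 to 3.20 RPKM in TKO-labelled embryos, had a log2 difference of -0.12 (adjusted p = 0.718 by limma). Within an embryo, Cdkn1c over Kcnq1ot1 gave 9.55, 7.32, 6.22 and 7.97 in Control and 6.32, 11.8, 16.1 and 14.6 in TKO-labelled embryos. TKO replicates 2, 3 and 4 lay above the Control range and TKO replicate 1 inside it. With 1 RPKM added to each gene the log2 ratios averaged 2.58 ± 0.22 and 3.11 ± 0.56 (SD, n = 4 each, exact permutation p = 0.171, or 0.214 adjusted over 5 pairs).

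Slc22a18, a membrane protein of the organic cation transporter family, was the lowest of the members tested. Its values were 2.34, 2.55, 1.13 and 1.71 RPKM in Control and 0.991, 0.822, 3.25 and 1.26 RPKM in TKO-labelled embryos. As for Phlda2, TKO replicate 3 was the highest of the 8 and TKO replicates 1 and 2 were the lowest. The log2 difference was -0.24 (95% interval from -0.83 to 0.34, adjusted p = 0.657 by limma). Leaving out TKO replicate 3 gave -0.51, and leaving out TKO replicate 2 gave -0.11.

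Over the 8 embryos log2(RPKM + 1) of Cdkn1c and Phlda2 had a Pearson r of 0.662 (exact permutation p = 0.0718) and a Spearman rho of 0.619 (exact permutation p = 0.115). With each group centred on its mean r was 0.823, where the other pairs of members of 1 domain had 0.444 to 0.774. Without the 2 embryos farthest from the Cdkn1c median, Control replicate 2 and TKO replicate 3, the r of Cdkn1c and Phlda2 was 0.470. Phlda2 and Slc22a18 had r of 0.644 (exact permutation p = 0.0865) and rho of 0.667 (exact permutation p = 0.0831), and r was 0.270 without TKO replicates 1 and 3. Cdkn1c and Slc22a18 had r of 0.283 and rho of 0.214 (exact permutation p = 0.509 and 0.619), and r was 0.0469 without Control replicate 2 and TKO replicate 3. After Benjamini-Hochberg adjustment over the 6 pairs of members of 1 domain, the Pearson p-values of these 3 pairs were 0.173, 0.173 and 0.544 and the Spearman p-values 0.230, 0.230 and 0.665. Without TKO replicate 3 alone the r of Cdkn1c with Phlda2 was 0.413 and that of Phlda2 with Slc22a18 0.442.

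Meg3, Rian and Mirg are non-coding RNAs transcribed from the maternal chromosome of the Dlk1-Dio3 domain. Meg3 is a nuclear RNA, Rian carries small nucleolar RNAs in its introns, and Mirg hosts a large cluster of microRNAs. Meg3 stood at 26.6, 21.7, 19.6 and 31.4 RPKM in Control and at 26.8, 18.9, 20.1 and 15.8 RPKM in TKO-labelled embryos. TKO replicates 2 and 4 lay below all Control embryos, and TKO replicate 1 lay above 3 of the 4. The log2 difference of Meg3 was -0.27 (95% interval from -0.67 to 0.12, adjusted p = 0.451 by limma, exact permutation p = 0.229).

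Rian stood at 18.3, 11.7, 14.9 and 14.5 RPKM in Control and at 28.5, 10.6, 14.3 and 19.6 RPKM in TKO-labelled embryos. TKO replicates 1 and 4 exceeded all Control embryos and TKO replicate 2 was the lowest of the 8. Its log2 difference was 0.21 (95% interval from -0.35 to 0.77, adjusted p = 0.698 by limma), and -0.03 without TKO replicate 1. Mirg varied least across all 8 embryos, at 8.85, 7.15, 7.09 and 7.55 RPKM in Control and 9.93, 7.10, 7.90 and 7.01 RPKM in TKO-labelled embryos. Its highest value was only 1.42 times its lowest. The log2 difference of Mirg was 0.05 (95% interval from -0.24 to 0.34, adjusted p = 0.881 by limma).

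The 3 RNAs of this domain did not keep a fixed proportion. Meg3 over Rian gave 1.45, 1.85, 1.32 and 2.16 in Control and 0.940, 1.78, 1.41 and 0.807 in TKO-labelled embryos, so that Rian exceeded Meg3 only in TKO replicates 1 and 4. Meg3 over Mirg gave 3.01, 3.04, 2.76 and 4.16 in Control and 2.70, 2.66, 2.54 and 2.26 in TKO-labelled embryos. These 4 values lay below the 4 of Control, at the closest 2.70 against 2.76. Rian over Mirg overlapped, at 1.64 to 2.10 in Control and 1.49 to 2.87 in TKO-labelled embryos. The ratios with Meg3 were chosen after their values were seen, and none of these ratios was tested. How often ratios of other genes do not overlap was not counted. Rian and Mirg had r of 0.757 over the 8 embryos (exact permutation p = 0.0294) and rho of 0.238 (exact permutation p = 0.582), and r was 0.282 without TKO replicates 1 and 2. It was 0.388 without TKO replicate 1 alone, on which it rested, and 0.742 without TKO replicate 2 alone. Meg3 and Mirg had r of 0.603 and rho of 0.786 (exact permutation p = 0.119 and 0.0279), and r was 0.890 without Control replicate 4 and TKO replicate 4. Meg3 and Rian had r of 0.256 and rho of 0.190 (exact permutation p = 0.544 and 0.665), and r was 0.820 without the same 2 embryos. After Benjamini-Hochberg adjustment over the 6 pairs the smallest of these Pearson p-values was 0.173 and the smallest Spearman p 0.168.

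**Figure D4:**
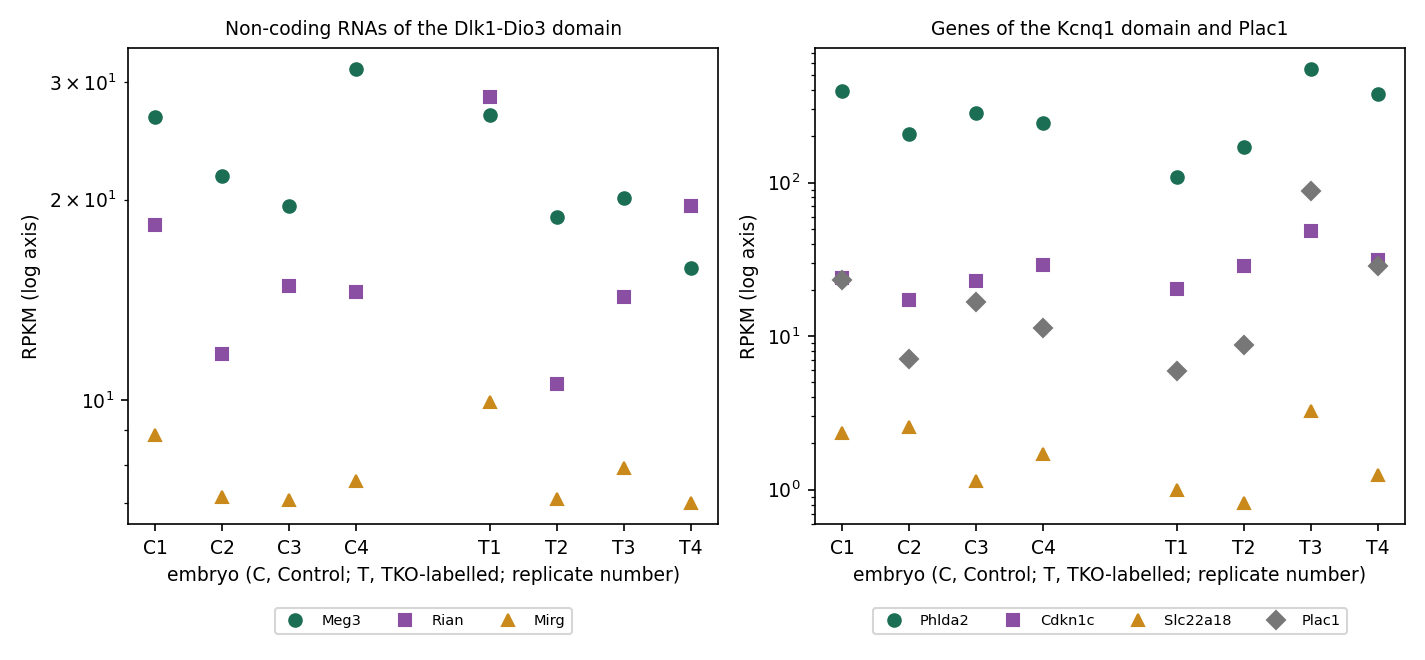
RPKM (log axis) in each embryo (x axis) of Meg3, Rian and Mirg (left) and of Phlda2, Cdkn1c, Slc22a18 and the trophoblast gene Plac1 (right). Rian lies above Meg3 in TKO replicates 1 and 4, and Phlda2, Cdkn1c, Slc22a18 and Plac1 are all highest in TKO replicate 3.

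Dlk1, the paternally expressed gene at the other side of this domain, which encodes a transmembrane inhibitor of differentiation, was below the filter, at 0.316 to 0.780 RPKM in Control and 0.301 to 0.599 RPKM in TKO-labelled embryos. The log2 ratio of Meg3 to Dlk1, each plus 1 RPKM, averaged 4.10 ± 0.32 and 3.89 ± 0.33 (SD, n = 4 each, exact permutation p = 0.400, also after adjustment over 5 pairs). Without that addition Meg3 over Dlk1 was 34.1, 42.3, 61.9 and 90.4 in Control and 80.0, 40.3, 33.5 and 52.5 in TKO-labelled embryos. Dio3, the deiodinase gene that inactivates thyroid hormone, stood at 1.56, 0.0720, 4.46 and 3.39 RPKM in Control and at 0.108, 0.151, 1.71 and 0.911 RPKM in TKO-labelled embryos (-0.83 on the log2 scale, adjusted p = 0.383 by limma). Its lowest 3 values were in Control replicate 2 and TKO replicates 1 and 2, the 3 embryos with the lowest decidual marker sums, 3.58, 43.6 and 20.5 RPKM, and 0 of the 8 tested decidual markers had a higher mean in TKO-labelled embryos. The part of decidua in the Dio3 values was not tested. Of 56 microRNA precursor loci listed beside the members 33 were in the table, of which 7 were listed at 0 in all embryos, 21 were above 0 in 1 to 3 embryos and 5 in 4 or more. Mir453 was above 0 in 7 embryos, up to 3.69 RPKM. These are values of precursor loci and not of mature microRNAs.

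Grb10 encodes an adaptor that dampens insulin and growth factor signalling. It stood at 40.5, 40.7, 50.3 and 45.2 RPKM in Control and at 44.0, 43.1, 33.2 and 35.9 RPKM in TKO-labelled embryos. TKO replicates 3 and 4 lay below all Control embryos. Its coefficient of variation in Control embryos, 10.4%, was the lowest of the 10 members. The log2 difference was -0.18 (95% interval from -0.45 to 0.10, adjusted p = 0.480 by limma, exact permutation p = 0.229). Ddc, which encodes a decarboxylase of amine synthesis and is the neighbour of Grb10, stood at 10.6 to 19.7 RPKM in Control and 14.1 to 18.2 RPKM in TKO-labelled embryos (0.25 on the log2 scale, adjusted p = 0.467 by limma).

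Igf2r encodes the receptor that takes up IGF2 for breakdown and carries mannose 6-phosphate tagged enzymes to lysosomes. It stood at 9.79, 7.99, 5.51 and 7.70 RPKM in Control and at 5.64, 5.97, 8.19 and 4.57 RPKM in TKO-labelled embryos. Control replicate 3 lay below TKO replicates 1, 2 and 3, and TKO replicate 3 above 3 of the 4 Control embryos. The log2 difference was -0.30 (95% interval from -0.71 to 0.11, adjusted p = 0.421 by limma, exact permutation p = 0.286). Airn, the paternal antisense RNA that silences Igf2r, was below the filter at 0.275 to 0.695 RPKM in Control and 0.45 to 0.622 RPKM in TKO-labelled embryos, or 9 to 26 whole reads per embryo. The log2 ratio of Igf2r to Airn, each plus 1 RPKM, averaged 2.60 ± 0.44 and 2.20 ± 0.27 (SD, n = 4 each, exact permutation p = 0.171, or 0.214 adjusted over 5 pairs). Without that addition Igf2r over Airn was 20.8, 29.0, 7.92 and 26.9 in Control and 12.2, 13.3, 13.2 and 8.41 in TKO-labelled embryos. Airn overlaps Igf2r on the other strand, and SMARTer cDNA made into Nextera libraries keeps no strand, so reads of the overlap cannot be told apart.

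Zim1, a zinc finger gene of the Peg3 domain, was close to the limit of detection. It stood at 0.138, 0.191, 0.183 and 0.119 RPKM in Control and at 0.0290, 0.141, 0.150 and 0.0730 RPKM in TKO-labelled embryos. Set against the relative read totals these values were 8, 10, 8 and 6 whole reads in Control and 1, 7, 10 and 3 whole reads in TKO-labelled embryos, each within 0.018 of a whole read. The groups overlapped (exact permutation p = 0.171), and at so few reads the counting error alone is wide. Peg3, the paternally expressed zinc finger gene of the same domain, stood at 5.26 to 6.77 RPKM in Control and 6.36 to 7.21 RPKM in TKO-labelled embryos (0.16 on the log2 scale, adjusted p = 0.480 by limma). The log2 ratio of Zim1 to Peg3, each plus 1 RPKM, averaged -2.58 ± 0.17 and -2.82 ± 0.09 (SD, n = 4 each, exact permutation p = 0.0857, or 0.214 adjusted over 5 pairs). With Zim1 far below the 1 RPKM added, this ratio mostly follows Peg3. Without that addition Zim1 over Peg3 was 0.0204, 0.0363, 0.0325 and 0.0195 in Control and 0.00456, 0.0214, 0.0222 and 0.0101 in TKO-labelled embryos. The difference of the log2 ratios was -0.23, or -0.60 with 0.1 RPKM added instead (exact permutation p = 0.171).

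**Figure D5:**
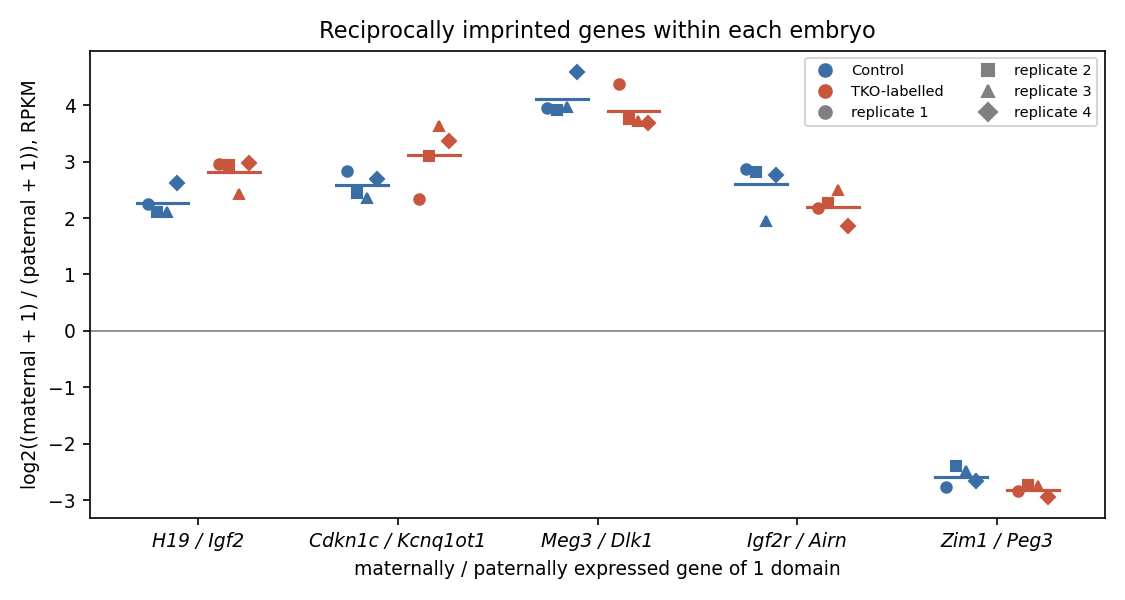
Within-embryo log2 ratio of the maternally to the paternally expressed gene of a domain, each plus 1 RPKM (y axis), 1 point per embryo, Control in blue and TKO-labelled in red, with a bar at the group mean. The groups overlap for all 5 pairs, for H19 over Igf2 only through TKO replicate 3 at 2.42 and Control replicate 4 at 2.62. Zim1, Dlk1 and Airn lie below 1 RPKM in each embryo, so the 1 RPKM added outweighs them.

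Other imprinted genes were set beside the members. Of 28 further genes reported as maternally expressed 14 were tested and 0 passed the adjusted threshold. Their log2 differences had a median of -0.15, with 5 of them above 0, against 66.5% of all genes tested. Their smallest unadjusted limma p-values were those of Copg2, a coat protein gene of transport vesicles, at 3.25 to 4.92 RPKM in Control and 4.66 to 7.27 RPKM in TKO-labelled embryos (0.45 on the log2 scale, adjusted p = 0.206 by limma), and of Pon2, a paraoxonase gene, at 11.5 to 22.2 and 9.43 to 13.4 RPKM (-0.36, adjusted p = 0.347 by limma). Of 10 paternally expressed or neighbouring genes in the members' own domains 5 were tested, with a median of 0.01 and 0 past the threshold. Of 21 other paternally expressed genes 13 were tested, with a median of 0.08 and 0 past the threshold. Among them Nnat, which encodes the membrane protein neuronatin, stood at 3.75 to 4.36 RPKM in Control and 1.21 to 2.75 RPKM in TKO-labelled embryos with no overlap (-0.83 on the log2 scale, adjusted p = 0.120 by limma). Over 15 alternative fits the adjusted limma p of Nnat ran from 0.0253 (without TKO replicate 1) to 0.349 (without TKO replicate 4), and 14 left it above 0.05. Magel2, a ubiquitin ligase regulator, stood at 1.48 to 2.55 and 0.607 to 1.27 RPKM, also with no overlap (-0.57, adjusted p = 0.173 by limma). Nnat and Magel2 were named for the 2 smallest limma p-values of the 13. The groups did not overlap for 2 of the 13, against 9.41% of all genes tested.

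Of 17 genes that set or keep imprints 16 were tested and 0 passed the threshold, with a median log2 difference of 0.04. Dnmt3l, the cofactor of the germ-line DNA methyltransferases, stood at 19.2 to 26.0 RPKM in Control and 13 to 21.4 RPKM in TKO-labelled embryos (-0.32 on the log2 scale, adjusted p = 0.312 by limma). Zfp57 stood at 1.54, 0.952, 0.967 and 1.51 RPKM in Control and at 4.03, 1.42, 1.22 and 2.27 RPKM in TKO-labelled embryos (0.46, adjusted p = 0.344 by limma). TKO replicate 1, the highest for Zfp57, also had the highest sum of the 12 epiblast markers, 1053 RPKM against 499 to 729.6 RPKM in Control embryos, and the part of the epiblast in that value was not tested. Tet2 stood at 0.444 to 0.850 RPKM in Control and 0.598 to 0.993 RPKM in TKO-labelled embryos. Tet3 stood at 1.73 to 2.08 and 1.14 to 1.68 RPKM with no overlap (-0.26 on the log2 scale, adjusted p = 0.297 by limma).

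For each member with a mean of at least 5 RPKM the 2 genes most like it over the 8 embryos were taken by the Pearson r of log2(RPKM + 1). They are the highest of all genes tested, so the r is a description. H19 was closest to A530054K11Rik (0.982) and to the calcium-binding nucleobindin gene Nucb1 (0.976), which was highest in TKO replicate 1 at 13.6 RPKM, as H19 was. Cdkn1c was closest to the deubiquitinase gene Usp40 (0.954) and the lysosomal membrane protein gene Tmem106b (0.952), and Phlda2 to the signalling adaptor gene Tollip (0.937) and the sorting nexin gene Snx25 (0.932). Meg3 was closest to Neurl2 (0.954) and Tbrg3 (0.948), Rian to Tcf25 (0.975) and Mpnd (0.974), and Mirg to the Mediator subunit gene Med12 (0.958) and 2310057J16Rik (0.957). Grb10 was closest to Phf21b (0.950) and Enho (0.949). Igf2r was closest to Spink3, a secreted protease inhibitor (0.977), and to Pbxip1 (0.953).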

How the data were processed

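RNA sequencing of 8 single embryos was analysed from the deposited table, which holds 1 RPKM value per gene symbol and embryo as computed by the authors, a unit taken from the table's name and its non-integer values. Single embryos were turned into SMARTer cDNA and Nextera XT libraries, per the labels. HTSeq and mm9 appear per the submitters' processing notes, with no role stated. Aligner, annotation, gene lengths and read total were not given in the sources used here. Each of the 8 columns matched 1 sample label.

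Values of log2(RPKM + 1) were fitted in R 4.3.3 by limma 3.58.1 with a variance trend, over 10451 genes with at least 1 RPKM in at least 4 embryos, two-sided, with Benjamini-Hochberg adjustment over all of them and a threshold of 0.05. Differences are TKO-labelled minus Control on that scale, which understates changes of low genes. Single genes and within-embryo ratios were also compared by exact two-sided permutation over 70 assignments. The limma script was tested on simulated data. A p-value measures only how these single embryos vary.

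Relative read totals were taken from the commonest ratio of values between 0.03 and 0.5 RPKM in 2 embryos, and a value was called whole reads within 0.05 of a read. Absolute depth was not estimated, and no count test was run.

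The members and lists were chosen with earlier results of these data known. Besides the members, named genes are the TET genes, the domain partners, the 2 smallest p-values of each list, and the 2 genes most like a member. Promoter windows come from RefSeq. Alternatives were a pseudocount of 0.1, other filters, median-ratio scaling, no variance trend, embryo weights, a replicate block and leaving out each embryo. Deviations of same-numbered embryos had correlations of -0.005, 0.402, 0.265 and -0.021, and those of embryos with other numbers ran from -0.462 to 0.196. The highest, 0.402 and 0.265, were thus both of same-numbered embryos, and these values do not settle whether the numbers mark pairs. The sources used here name no pairing, so the main fit took none and the replicate block is given beside it.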

Additional observations from a re-analysis of the deposited data

Results flagged for a closer look

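In 62 groups of 4 embryos looked at, 5 embryo values lay far from the other 3 of their group by Dixon's ratio at its 95% critical value. Chance exceeds that value in about 1 of 20 groups. Each named gene, save those named as most like a member, and each within-embryo ratio of the 5 pairs was looked at in each group. The log2 ratio of H19 to Igf2, each plus 1 RPKM, was 2.42 in TKO replicate 3 and 2.94 to 2.98 in the other TKO-labelled embryos. The ratio of Meg3 to Dlk1 was 4.59 in Control replicate 4 against 3.91 to 3.97 in the other Control embryos, and 4.38 in TKO replicate 1 against 3.69 to 3.76 in the other TKO-labelled embryos. The ratio of Igf2r to Airn was 1.94 in Control replicate 3 against 2.76 to 2.88. Tet2 was 0.444 RPKM in Control replicate 2 against 0.795 to 0.850 RPKM. On the plain ratios, with nothing added to either gene, a comparison chosen after seeing the data, H19 to Igf2 in TKO replicate 3 (5.40 against 7.84 to 8.03) still passed the critical value and the ratios to Dlk1 and Airn did not, so those 3 depend on the 1 RPKM added to genes at low levels.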

How the results depend on the processing

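Under all 15 alternatives 0 members passed the adjusted threshold and 0 had groups without overlap. Of 135 refits of the 9 tested members 128 kept their direction. The other 7 concerned Phlda2 (log2 difference 0.19 with embryo weights and -0.52 to 0.25 when 1 embryo was left out), Rian (-0.028 to 0.42 when 1 embryo was left out) and Mirg (-0.030 with median-ratio scaling and -0.052 to 0.11 when 1 embryo was left out). H19 kept its direction in all 15, at 0.41 to 0.74, with adjusted p-values of 0.159 to 0.490 and an unadjusted p below 0.05 in 8. The members at an unadjusted p below 0.05 numbered 0 with median-ratio scaling and 0 to 2 when 1 embryo was left out, with 2 of them without TKO replicate 1 (Cdkn1c and Meg3) or without TKO replicate 3 (Igf2r and Slc22a18). Over all genes, the number higher past the threshold was 0 without the filter, 2 with embryo weights, 0 with the replicate block and 0 to 29 when 1 embryo was left out, and 0 to 7 passed as lower. The 29 and 7 were reached without TKO replicate 1. With the replicate block, a fit that takes the number as a pair, H19 had a limma p of 0.0068 (adjusted p = 0.159), and no call of a member changed. When 1 embryo was left out Slc22a18 ran from -0.51 (without TKO replicate 3) to -0.11 (without TKO replicate 2), Meg3 from -0.41 (without TKO replicate 1) to -0.16 (without Control replicate 4), Grb10 from -0.24 (without TKO replicate 1) to -0.105 (without TKO replicate 3), and Igf2r from -0.44 (without Control replicate 3) to -0.19 (without Control replicate 1). Directions near 0 also turned for Igf2 (-0.079 with median-ratio scaling, -0.12 to 0.15 when 1 embryo was left out), Tet2 (-0.033 to 0.10) and Dlk1 (-0.11 to 0.032). The r of Meg3 with Rian was -0.013 to 0.54 and that of Cdkn1c with Slc22a18 -0.41 to 0.65 when 1 embryo was left out, a check of r that was chosen after seeing the data. The cause of these changes was not tested. The number of embryos limits the precision, as does depth for Zim1, Airn and Dlk1.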
